A study of Mus musculus with 6 samples.

Results

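The ribosomal protein pseudogenes described here are the genes whose symbol starts with Rpl or Rps and carries the suffix -ps, and whose mean raw count over the 6 libraries was at least 10. There were 119 of them among 55416 rows of the count table, 67 named after proteins of the large and 52 after proteins of the small ribosomal subunit. They were chosen by the mean over all libraries, so that level is not a result, whereas the contrast of genotypes was not used. Of 300 Rpl or Rps -ps rows in all, 61 had no read in any library and 120 had reads but a lower mean. The rows nearest below the limit, Rplp0-ps1, Rps2-ps3 and Rps15a-ps5, had means of 9.5, 9.5 and 9.67 counts, and the nearest inside it, Rps15a-ps4, Rpl18-ps2 and Rpsa-ps1, had means of 10, 10.2 and 10.3.

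RNA was sequenced from tibialis anterior (TA) muscle, a fast muscle of the lower leg, of naturally aged male mice, 3 wild-type (WT) and 3 SELENOW knockout (KO). All mice were 24 months old and of the C57BL/6N background, and the KO was made in the whole animal by deleting an exon of Selenow with CRISPR-Cas9. Selenow encodes a small selenium-containing protein with a redox motif. The count of Selenow covers the whole gene and not the deleted exon alone. Its CPM, the counts scaled to a common library total, were 268, 245 and 219 in WT and 193, 212 and 210 in KO, so the libraries did not overlap, but the log2 fold change of -0.25 (SE 0.14, edgeR adjusted p = 0.604) was not called. This count does not check the labels of the KO libraries.

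Ribosomal proteins are needed in equal amounts by every ribosome, and their short, abundant mRNAs have been copied back into the genome many times by reverse transcription. Such processed pseudogenes lack introns and most lack a promoter of their own. Their sequence can be so near to that of the parent gene that a sequencing read from one can be placed on the other. Counts of a pseudogene may therefore hold reads of the parent mRNA, and the reverse, and the sources used here do not state how reads with several matches, or the strand of reads, were treated.

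By name, the 119 pseudogenes belonged to 44 parent genes. Rps12, a protein of the small subunit, had 13 and Rpl17 had 6, while Rpsa, Rpl7a, Rpl30, Rpl31 and Rpl35a had 5 each and 15 parents had a single one. The annotation lists 110 as processed pseudogenes, 5 as transcribed processed pseudogenes and 4 (Rps12-ps3, Rpl9-ps6, Rpl10-ps3 and Rpl36a-ps1) as protein-coding. Of all 119, 75 lay outside other genes, 38 inside an intron of another gene and 6 overlapped an exon of another gene. They lay on 20 chromosomes, and 18 of the pseudogenes were on X.

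Their transcripts in the GENCODE M21 annotation (build GRCm38) were compared with those of the parents. A total of 114 were more than 95% identical to a stretch of the parent transcript, 54 were more than 99% identical and 13 differed by no base. Rpl18-ps1 and Rpl36a-ps3 were the 2 exceptions under 90%, at 53.1% and 87.5%. They had no 50-base or 100-base window in Rpl18 and Rpl36a, and are grouped with these genes by name only. When each transcript was cut into all its windows of 100 bases, the median pseudogene had 38.2% of its windows letter for letter in the parent transcript. For 30 pseudogenes every window also occurred in a transcript of some other gene, and only Rpl39-ps and Rps24-ps2 had no such window. The transcript of Rpl39-ps has 151 bases, and all 52 of its windows hold the 1 base that differs from Rpl39. Of its 50-base windows, 51.0% occurred in Rpl39.

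Stretches of 120 coding bases show how near the copies are. All are written 5′ to 3′ and taken from the GENCODE M21 transcripts, with positions counted from 1 at the first base of the parent's start codon. Capitals mark bases at which a copy differs from the parent, and in the parent line every base at which any copy shown differs. The first pair is shown because Rpsa-ps10 had the highest fold change. Rpsa encodes a laminin-binding protein that is also part of the small subunit, and the stretch covers positions 100 to 219, with Rpsa at chr9:120127689-120132369 on the plus strand and Rpsa-ps10 at chr3:150072658-150073542 on the minus strand (GRCm38). The copy carries T210C and C219T here, where the first letter is the parent's base.
Rpsa: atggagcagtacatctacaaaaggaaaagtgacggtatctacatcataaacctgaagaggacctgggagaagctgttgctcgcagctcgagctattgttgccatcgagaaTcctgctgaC
Rpsa-ps10: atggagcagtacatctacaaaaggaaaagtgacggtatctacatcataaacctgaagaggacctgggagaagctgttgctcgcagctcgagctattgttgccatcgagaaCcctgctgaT

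The Rps12 family is shown because it holds both an exact copy and a group of near-identical copies on chromosome X. Positions 16 to 135 are given for Rps12 (chr10:23785183-23787275, minus strand), Rps12-ps3 (chr19:59322290-59322783, plus), Rps12-ps11 (chrX:124469959-124470357, minus), Rps12-ps16 (chrX:125986966-125987364, minus) and Rps12-ps17 (chrX:125547773-125548171, minus). Rps12-ps3 has no difference over the whole coding sequence. The copies on X share T21A, C45G, C72A, C97T and C135T, to which Rps12-ps16 adds C129A and Rps12-ps17 adds A103C.
Rps12: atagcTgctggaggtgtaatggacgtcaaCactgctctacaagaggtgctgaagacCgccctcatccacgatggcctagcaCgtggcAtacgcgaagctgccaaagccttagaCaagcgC
Rps12-ps3: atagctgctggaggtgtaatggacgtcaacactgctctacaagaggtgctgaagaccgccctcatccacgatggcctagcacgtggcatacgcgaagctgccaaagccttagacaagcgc
Rps12-ps11: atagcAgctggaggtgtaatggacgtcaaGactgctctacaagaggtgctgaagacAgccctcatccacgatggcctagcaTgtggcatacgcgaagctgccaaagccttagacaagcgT
Rps12-ps16: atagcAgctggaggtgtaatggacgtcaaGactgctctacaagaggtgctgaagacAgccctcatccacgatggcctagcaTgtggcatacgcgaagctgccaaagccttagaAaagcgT
Rps12-ps17: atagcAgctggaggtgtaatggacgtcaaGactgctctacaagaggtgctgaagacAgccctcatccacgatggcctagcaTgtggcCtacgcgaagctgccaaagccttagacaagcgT

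The pair of Rpl39, a small protein of the large subunit, is shown because Rpl39-ps had one of the lowest fold changes. Positions 1 to 120 are given for Rpl39 (chrX:37082520-37085402, minus strand) and Rpl39-ps (chr15:102635038-102635188, plus), which differ by T96C.
Rpl39: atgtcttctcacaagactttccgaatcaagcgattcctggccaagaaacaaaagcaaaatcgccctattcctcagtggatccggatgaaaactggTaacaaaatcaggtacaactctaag
Rpl39-ps: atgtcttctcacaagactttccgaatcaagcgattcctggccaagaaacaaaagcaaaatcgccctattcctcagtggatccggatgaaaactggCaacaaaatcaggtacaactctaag

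Library totals ranged from 25351976 to 29111213 counts, and counts of the mitochondrial genome took 29.1% to 37.3% of them in WT and 35.4% to 40.3% in KO. Genes with at least 1 count numbered 24015, 24035 and 24570 in WT and 23287, 25020 and 22711 in KO, so KO replicates 1 and 3 were below every WT library and KO replicate 2 was above. Markers of skeletal muscle summed to 87144 to 113653 CPM, whereas adipocyte markers stayed under 0.775 CPM in every library. Of the other lists, leukocyte markers had 1 gene called lower and 1 called higher of 5 tested, erythroid markers 2 lower of 5 and epidermis markers 1 lower of 2. Summed erythroid CPM was 174 to 293 in WT and 142 to 165 in KO, and its part in the results was not tested. The summed CPM of endothelial markers was 49.2 to 86.2 in WT and 77.1 to 90.1 in KO, that of fibroblast markers 63.7 to 207 and 55.9 to 113, and that of Schwann cell markers 3.70 to 5.88 and 5.67 to 9.46.

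The pseudogenes differed between libraries already in whether they were seen. Of the 300 rows, 199, 196 and 198 had at least 1 count in the WT libraries, and 150, 197 and 146 had one in KO replicates 1, 2 and 3. Of the 119 pseudogenes, 4, 1 and 3 were under 10 counts in WT, and 41, 5 and 38 in KO. KO replicates 1 and 3 held 4 and 5 of them at 0, which at these depths allows up to 0.108 and 0.109 CPM (3 counts, counting error only), and no other library held any at 0.

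**Figure D1:**
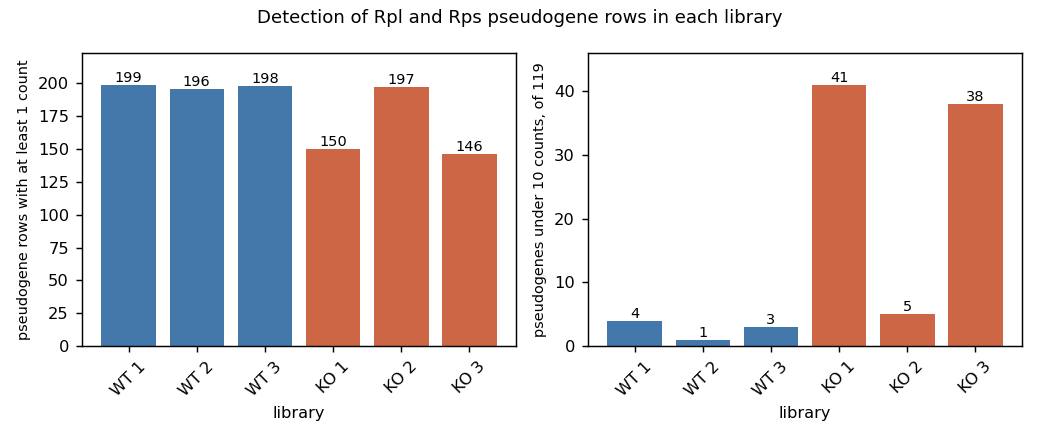
Bars give, for each of the 3 WT and 3 KO libraries, the number of the 300 Rpl and Rps pseudogene rows with at least 1 count (left) and the number of the 119 pseudogenes with fewer than 10 counts (right). KO 1 and KO 3 stand apart with 150 and 146 rows seen and 41 and 38 pseudogenes under 10 counts, while KO 2, with 197 and 5, lies beside the WT libraries.

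Next, KO was compared with WT gene by gene, to ask how the loss of SELENOW affected their levels in aged muscle. Most pseudogenes had lower values in KO. Calls required an unadjusted edgeR p under 0.05, with a fold change under 0.7 for a lower level and over 1.5 for a higher one. Of the 118 that passed the filter on low counts, 54 were called lower, where 3.14% of all 15623 genes tested were, and 1 was called higher, where 2.21% were. The log2 fold change was below 0 for 108, with a median of -0.70 and quartiles of -1.03 and -0.31, beside a median of -0.0042 over all genes tested. For 55 of the 119 the highest KO library lay below the lowest WT library, as it did for 7.87% of all genes tested. None had an adjusted p under 0.05 with edgeR, as was the case for all 15623 genes. An unadjusted edgeR p under 0.05 was reached by 62 of the 118, and by 1545 of all 15623 genes. An adjusted p under 0.05 was reached by 1 with DESeq2 (0.288% of all genes). DESeq2 called 52 lower and 4 higher, beside 3.06% and 1.88% of all genes. The filter passed 40 of the 118 at its level of 0.364 CPM in all 3 WT libraries but not in all 3 KO libraries, and 2 the other way round. With a filter on the mean over all libraries instead, which keeps all 119, 55 were called lower and 1 higher, with a median of -0.71 (background 3.07% lower and 2.22% higher).

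These counts depended on the libraries. Without KO replicate 1 or 3, 34 and 33 pseudogenes were called lower, beside 3.95% and 2.55% of all genes tested in the same fits. Without KO replicate 2, 64 were called lower (4.17% of all genes), of which 24 reached an adjusted p under 0.05 of edgeR (1.5% of all genes). Without WT replicate 1 or 2, 35 and 36 were called lower, beside 2.46% and 3.84% of all genes. With KO replicates 1 and 3 both left out, 22 were called lower and 7 higher, beside 4.01% and 3.59% of all genes, the median log2 fold change was -0.35, and the spread of the lone KO library was taken from the WT libraries. A set of 21 were called lower in all 6 fits that left out 1 library, among them Rpl9-ps4, Rps23-ps1 and Rpl39-ps. How many of all genes tested were called lower in all 6 fits was not counted, so the 21 have no background.

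The size of the difference followed the count. The 46 pseudogenes with a mean of 10 to under 30 counts had a median log2 fold change of -1.21 among the 45 tested. The 30 with 30 to under 100 counts had one of -0.67, and the 43 with 100 or more one of -0.33. Over all classes, 40 tested pseudogenes met the filter level in all WT but not all KO libraries, and 2 the other way round. With at least 10 counts asked of every library, the median over the 73 tested was -0.54. How far the gradient rests on pseudogenes with few reads in KO was not tested. In the lowest class the medians of the differences from the WT mean, on the log2(CPM + 0.5) scale, were 0.02, 0.06 and -0.06 in WT and -0.94, -0.16 and -0.92 in KO replicates 1, 2 and 3. In the highest class they were 0.13, 0.02 and -0.17 in WT and -0.36, -0.36 and -0.37 in KO. The KO libraries thus stood together for the pseudogenes with many reads, and KO replicate 2 stood near WT for those with few. KO replicate 2 was above both other KO libraries for 41 of 46, 18 of 30 and 16 of 43 pseudogenes in these classes. The same was true of 58.2%, 56.7% and 50.4% of other processed pseudogenes and of 37.6%, 34.7% and 30.1% of protein-coding genes. Only the lowest class thus stood well apart from other processed pseudogenes. KO replicates 1 and 3 lay below every WT library, and KO replicate 2 did not, for 41.3%, 26.7% and 6.98% of them. The same pattern, which was chosen after the values were seen, was met by 26.9%, 20.8% and 19.2% of other processed pseudogenes and by 4.02%, 2.45% and 1.46% of protein-coding genes in the same classes of count. It moved with the lower number of genes seen in KO replicates 1 and 3, whose part in it was not tested.

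**Figure D2:**
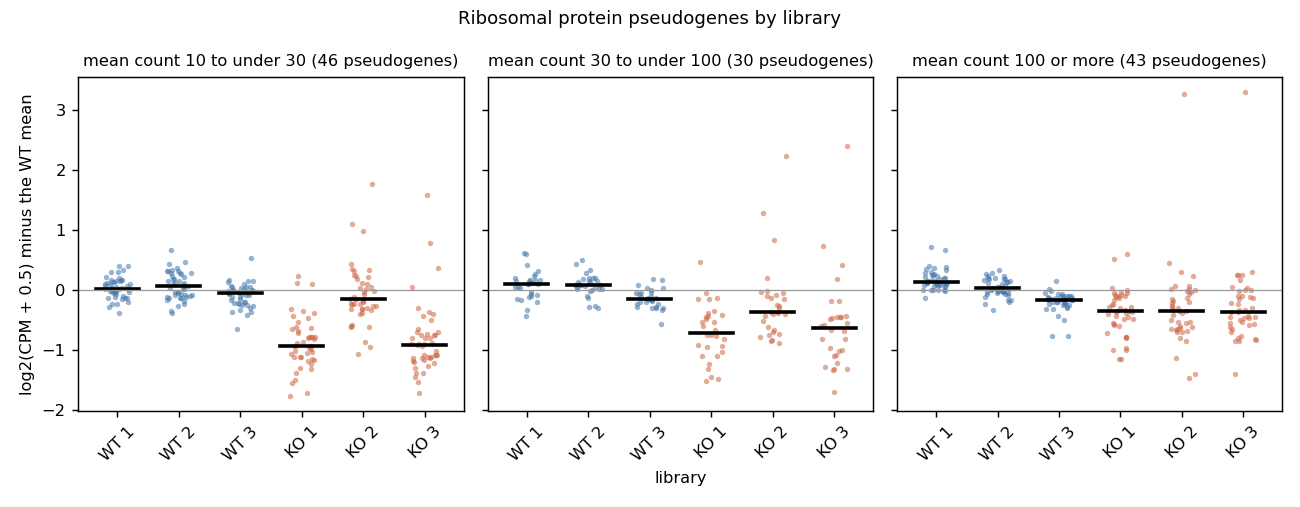
Each point is one of the 119 pseudogenes in one library, as the difference of its log2(CPM + 0.5) from the mean of the 3 WT libraries, and black bars are medians, in 3 classes of mean count. In the class of 10 to under 30 counts the medians of KO 1 and KO 3 are -0.94 and -0.92 and that of KO 2 is -0.16, and in the class of 100 or more all 3 lie between -0.37 and -0.36.

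Summed over all 119, the pseudogenes gave 889, 813 and 701 CPM in WT and 623, 733 and 717 in KO, and the genotypes overlapped. As CPM of the raw totals the sums were 865, 898 and 838 in WT and 556, 658 and 693 in KO, which did not overlap. The 8 pseudogenes with the highest CPM held 42.4% of the summed mean CPM, and none was called lower. Rpsa-ps10 was one of them through KO replicates 2 and 3 alone, with a mean of 28.2 CPM over all libraries and 7.08 CPM in WT. Rpl7a-ps11, a copy of a large subunit gene, had 97.0, 101 and 79.0 CPM in WT and 93.7, 92.7 and 91.2 in KO. Its log2 fold change was 0.00414 (SE 0.14, adjusted p = 0.994 from edgeR). Rpl21-ps15 had 77.3, 65.6 and 60.04 CPM in WT and 64.5, 66.2 and 66.1 in KO, a log2 fold change of -0.04 (SE 0.14). Per kilobase of gene length Rpl21-ps15 was first with a mean of 138 CPM and Rpl7a-ps11 second with 115 CPM. For both, the KO values lay within the WT range. Rps12-ps3 had 38.6, 32.2 and 27.9 CPM in WT and 30.3, 26.3 and 29.5 in KO, with 1 KO library below all WT libraries. Rpl14-ps1, Rpl17-ps10 and Rpl17-ps5 had log2 fold changes of -0.09, -0.19 and -0.21 and were not called. Rps27a-ps2, a copy of the gene for the fusion of ubiquitin and a small subunit protein, had 30.02, 26.5 and 25.3 CPM in WT and 22.2, 17.7 and 21.4 in KO. Its groups did not overlap, but its log2 fold change of -0.42 (SE 0.13, adjusted p = 0.347 from edgeR) was short of the fold asked for.

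The called pseudogenes with the lowest p were named after genes of both subunits. Rpl9-ps4 had 16.3, 18.8 and 14.7 CPM in WT and 11.0, 9.21 and 11.1 in KO, a log2 fold change of -0.67 (SE 0.14, adjusted p = 0.275 from edgeR). The other Rpl9 copies did likewise, with log2 fold changes of -0.57 (SE 0.13) for Rpl9-ps6 and -1.27 (SE 0.31) for Rpl9-ps7, and all KO libraries were below all WT libraries for the 3 of them. Rps23-ps1, whose transcript does not differ from Rps23, had 6.33, 4.64 and 5.07 CPM in WT and 2.38, 3.51 and 2.69 in KO, a log2 fold change of -0.90 (SE 0.21, adjusted p = 0.275 from edgeR). Rps23 itself was at -0.33 (SE 0.14). Rpl23a-ps3 and Rpl10a-ps1 had log2 fold changes of -0.66 (SE 0.16) and -0.81 (SE 0.21), and Rpl10a-ps1 has no difference from its parent. Rpl39-ps had 47, 44 and 62 counts in WT and 8, 21 and 5 in KO, a log2 fold change of -1.96 (SE 0.46, adjusted p = 0.275 from edgeR), where Rpl39 was at -0.70 (SE 0.13). Rpl35a-ps5 was at -1.75 (SE 0.45). Rpl18-ps1 was at -1.79 (SE 0.46) and is placed with Rpl18 by its name only. It was 53.1% identical to Rpl18 and had no 50-base or 100-base window in it. Of its 50-base windows, 46.8% occurred in other genes.

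The lowest fold changes came from few reads. Rpl30-ps3 had 15, 22 and 19 counts in WT and 2, 6 and 0 in KO, a log2 fold change of -2.55 (SE 0.70, adjusted p = 0.301 from edgeR). Rpl36a-ps1 had 23, 20 and 21 counts in WT and 0, 12 and 1 in KO, a log2 fold change of -2.08 (SE 0.84), and its call was lost whichever library was left out, except KO replicate 2. In both, all KO libraries were below all WT libraries and KO replicate 2 was the highest of the KO group. Rps24-ps2, a copy without a shared window, had 9, 25 and 14 counts in WT and 0, 19 and 0 in KO, and its log2 fold change of -1.08 (SE 1.19) was not called. Rps15a-ps4, the one pseudogene the filter left out, had 14, 25 and 9 counts in WT and 2, 9 and 1 in KO.

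Families of copies showed how far the values of single rows could be told apart. The 9 Rps12 copies on X lie between positions 124349725 and 125987364 of that chromosome (GRCm38), and all 9 were called lower, with log2 fold changes from -1.88 to -1.21. Rps12-ps11, -ps12, -ps13, -ps14 and -ps15 have identical transcripts, so their rows are not independent. Their summed counts were 112, 122 and 133 in WT and 23, 64 and 27 in KO. Rps12-ps11 had 15, 21 and 20 counts in WT and 4, 3 and 6 in KO, a log2 fold change of -1.88 (SE 0.48). The identical trio Rps12-ps6, -ps17 and -ps18 summed to 63, 87 and 81 counts in WT and 14, 48 and 12 in KO. In both groups KO replicate 2 had over 2 times the reads of the other KO libraries. The copies outside X were nearer to the parent gene, with log2 fold changes of -0.19 for Rps12-ps3, -0.44 for Rps12-ps4, -0.60 for Rps12-ps9 and -0.66 for Rps12-ps24, beside -0.36 for Rps12. Rps19-ps1 and Rps19-ps2, also identical and 0.311 Mb apart on chromosome 14, summed to 41, 71 and 39 counts in WT and 7, 28 and 7 in KO.

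Identical transcripts did not always give identical counts. Rpl35a-ps2, -ps3, -ps4 and -ps6 share one sequence, which differs from Rpl35a by G156A only. Rpl35a-ps3 and Rpl35a-ps6 had 174 and 168 counts in WT replicate 1, 114 and 110 in WT replicate 2, and 110 and 103 in WT replicate 3. In KO they had 78 and 79, 65 and 54, and 40 and 39 counts. Rpl35a-ps2 and Rpl35a-ps4 had 65 and 58, 84 and 73, and 55 and 58 counts in WT, and 20 and 22, 50 and 49, and 19 and 15 in KO. In every library the lower count of a pair was at least 78.9% of the higher, while the pairs differed from each other, and all 4 rows were called lower. The stretch from position 115 to 234 of Rpl35a (chr16:33056453-33060189, plus strand) is set here beside Rpl35a-ps3 (chr17:29136972-29137304, minus) and Rpl35a-ps5 (chr5:33076038-33076370, plus), which adds A171G and C234T.
Rpl35a: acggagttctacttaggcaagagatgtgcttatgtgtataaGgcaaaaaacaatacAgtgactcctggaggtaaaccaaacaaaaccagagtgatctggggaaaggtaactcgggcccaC
Rpl35a-ps3: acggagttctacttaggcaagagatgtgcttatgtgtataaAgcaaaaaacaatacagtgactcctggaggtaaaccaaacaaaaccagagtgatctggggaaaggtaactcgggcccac
Rpl35a-ps5: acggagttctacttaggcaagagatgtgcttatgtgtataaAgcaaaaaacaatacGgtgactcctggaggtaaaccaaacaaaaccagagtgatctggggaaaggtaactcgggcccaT

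Rps13-ps1 and Rps13-ps2, on chromosomes 8 and 7, moved together too. Rps13-ps1 differs from Rps13 by 2 of 456 coding bases. Rps13-ps2 lacks 3 of these bases and is otherwise an exact copy. Of their 100-base windows, 80.9% and 100% occurred in other genes. Rps13-ps1 had 238, 208 and 100 counts in WT and 216, 45 and 180 in KO, and Rps13-ps2 had 250, 202 and 100 in WT and 230, 48 and 191 in KO. Here KO replicate 2 was the lowest library and the genotypes overlapped, with log2 fold changes of -0.16 (SE 0.69) and -0.09 (SE 0.70). Rps13 itself had 953, 1051 and 926 counts in WT and 496, 580 and 571 in KO and was called lower at -0.65 (SE 0.13). Rps13-ps4 and Rps13-ps5 were called lower at -0.92 and -0.76.

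Among the pseudogenes the highest fold change was in a copy of Rpsa, and it did not come from all KO libraries. Rpsa-ps10 had 202, 228 and 181 counts in WT, and 83, 1749 and 1955 in KO replicates 1, 2 and 3. KO replicate 1 was thus below every WT library and the other two were above every WT library. The log2 fold change was 2.80 (SE 1.19, adjusted p = 0.554 from edgeR) and was not called, whereas without KO replicate 1 it was called higher at 3.36. Rpsa had 6183, 6331 and 5892 counts in WT and 4834, 3411 and 3691 in KO, so the parent was lowest in the 2 libraries in which the copy was highest. Added up, Rpsa and its 9 -ps rows gave 270, 214 and 209 CPM in WT and 201, 221 and 220 in KO. The log2 fold change of this sum was -0.11 (SE 0.15), where Rpsa alone was at -0.44 (SE 0.18). The share of the sum that fell on the copies ranged from 3.26% to 37.2% between libraries.

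Rpsa-ps2 had 122, 145 and 128 counts in WT and 44, 156 and 153 in KO, with KO replicate 1 alone below WT. The one pseudogene called higher was Rpl36-ps12, inside an intron of Sumf1 and on the same strand. It had 20, 35 and 9 counts in WT and 28, 58 and 39 in KO, a log2 fold change of 1.16 (SE 0.45, adjusted p = 0.441 from edgeR), and by CPM all KO libraries were above all WT libraries, as for 7.53% of all genes. The call was lost without WT replicate 1, WT replicate 3 or KO replicate 2, at 1.24, 0.78 and 0.82. Rpl36 itself was called lower at -0.60 (SE 0.16).

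**Figure D3:**
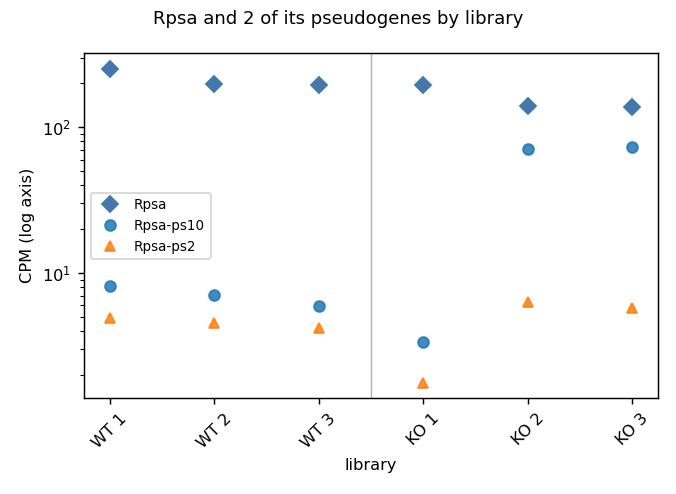
CPM on a log axis in the 3 WT and 3 KO libraries for Rpsa (diamonds) and for its pseudogenes Rpsa-ps10 (circles) and Rpsa-ps2 (triangles). Rpsa-ps10 goes from 5.96 to 8.19 CPM in WT to 3.34, 71.3 and 73.1 CPM in KO 1, KO 2 and KO 3.

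The parent genes were compared next. Of the 79 cytosolic ribosomal protein genes, 16 were called lower and none higher, beside 3.14% and 2.21% of all genes. Without WT replicate 1 or 3, 8 and 25 were called lower, beside 2.46% and 3.25% of all genes. Of the 79, 77 had a log2 fold change below 0, and the median was -0.33. For 49 of them (62.0%) every KO library lay below every WT library, as for 55 of the 119 pseudogenes (46.2%) and 7.87% of all genes. Of 118 pseudogenes, 91 had a lower log2 fold change than the parent they are named after. The 43 with 100 or more counts had a median of -0.33, like the parents, while the 2 classes with fewer counts had -0.67 and -1.21. Other -ps genes with a mean of at least 10 counts, which are copies of other genes, had 16 lower and 6 higher of 128 tested and a median of -0.21. Other processed pseudogenes had 146 lower and 8 higher of 807 and a median of -0.34. Both stand beside the same 3.14% lower and 2.21% higher of all genes. Other mRNAs of the translation machinery with a 5′ terminal oligopyrimidine motif had a median of -0.07 over 17 genes. Across the 118 pseudogenes the log2 fold change of a copy and of its parent had a Spearman correlation of 0.09, and of 0.31 over the 43 with 100 counts or more, given as a description because copies share parents and libraries.

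Because reads may be split between a parent and its copies, the counts of each parent and all its -ps rows were added and tested again. Rows were added by name. All 44 sums had a log2 fold change below 0, and 11 were called lower, beside 3.14% of all genes before summing. Among these were Rpl9 at -0.64 (SE 0.15), Rpl39 at -0.78 (SE 0.13) and Rpl29 at -0.80 (SE 0.27). The Rpl36a sum was called at -0.53 (SE 0.14), where Rpl36a alone was at -0.39 (SE 0.13) and not called. The sums of Rpl36a and Rpl18 hold Rpl36a-ps3 and Rpl18-ps1, which have no 100-base window in these genes. Copies without -ps in their symbol are not in these sums, so reads placed on such copies are still left out. Gm8210, such a copy near Rpl29, is described at the end. Without WT replicate 1 or KO replicate 2, 3 and 7 of the sums were called lower, beside 2.46% and 4.17% of all genes before summing. The parents of these families alone gave 43 below 0 and 9 called. Rps27a, whose copy held 56.7% of the family's reads, was at -0.76 (SE 0.15) alone and -0.57 (SE 0.13) as a sum, called lower both times. Copies held more than 50% of the reads in 5 families, led by Rpl17 with 86.3%, Rpl7a with 83.4% and Rpl21 with 78.3%, and under 10% in 18. For Rpl7a the parent had 657, 480 and 732 counts in WT and 270, 492 and 645 in KO, whereas its copy Rpl7a-ps11 had 2392, 3236 and 2400 in WT and 2327, 2273 and 2438 in KO. The sum was at -0.07 (SE 0.14). Rpl7a-ps11 differs from Rpl7a by 2 of 801 coding bases, of which A186G falls in the stretch from 67 to 186 given here for Rpl7a (chr2:26910764-26913318, plus strand) and Rpl7a-ps11 (chrX:166854211-166855011, plus).
Rpl7a: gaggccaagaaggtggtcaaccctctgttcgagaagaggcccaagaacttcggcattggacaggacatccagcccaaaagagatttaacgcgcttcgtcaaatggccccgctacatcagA
Rpl7a-ps11: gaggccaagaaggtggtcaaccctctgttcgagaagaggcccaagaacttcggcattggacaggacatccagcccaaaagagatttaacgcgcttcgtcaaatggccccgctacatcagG

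**Figure D4:**
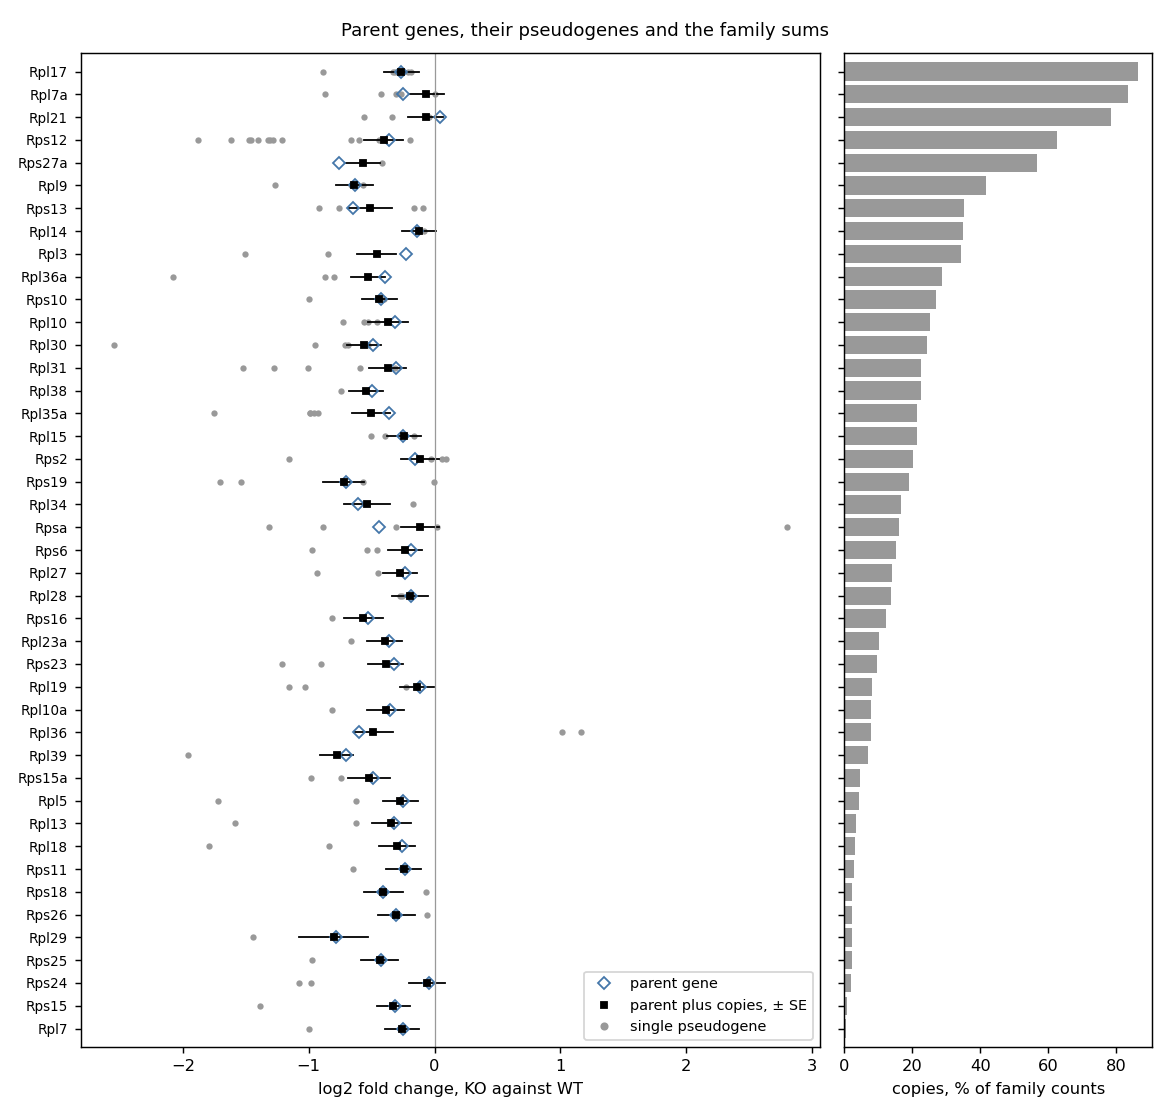
Each line is 1 of 43 of the 44 families. Left, log2 fold change of KO against WT for the parent gene (open diamonds), each tested pseudogene (grey) and the sum of parent and copies (black, with its standard error). Right, the share of the family's counts held by the copies, from 0.567% for Rpl7 to 86.3% for Rpl17. The 43 sums drawn all lie below 0, while single copies spread from -2.55 to 2.80.

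Sequence shared with the parent went with both count and change. The mean count of a pseudogene and its share of 100-base windows found in the parent had a Spearman correlation of 0.77 over 119, the share of windows and the log2 fold change one of 0.43 over 118, and the mean count and the log2 fold change one of 0.64. These describe copies that share libraries and parents and carry no p. The 34 pseudogenes with 60% or more of their windows in the parent had a median log2 fold change of -0.45, with 15 called lower. The 39 tested with under 20% had a median of -1.16, with 21 called lower. Among these 21 were the 9 near-identical Rps12 copies on X, each with 15.7% of its windows in Rps12, so these rows are not independent. Few windows in the parent need not mean few shared windows, as 100% of those of Rps12-ps11 occurred in other genes. Among the 13 exact copies 6 were called lower, all 13 were below 0, and the median was -0.46. Rpl15-ps3, Rps6-ps4 and Rpl10-ps1, which are exact copies, had log2 fold changes of -0.16 (SE 0.13), -0.46 (SE 0.14) and -0.53 (SE 0.16), beside -0.25, -0.19 and -0.31 for Rpl15, Rps6 and Rpl10. The 18 pseudogenes on X, 9 of them Rps12 copies, had 13 called lower. Those outside other genes had 37 of 74 called lower and those in introns 15 of 38.

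**Figure D5:**
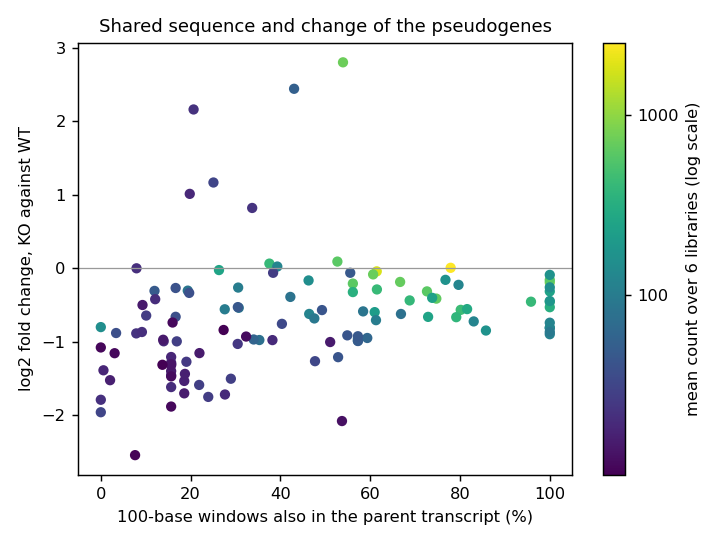
Each point is one of the 118 tested pseudogenes, placed by the percent of its 100-base windows that occur in the parent transcript and by its log2 fold change of KO against WT, and coloured by mean count. Copies with few windows in the parent tend to have lower counts and lower fold changes, and the highest point is Rpsa-ps10 at 2.80.

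The remaining named pseudogenes were the most abundant of their families. Rpl10-ps3 had 16.7, 19.7 and 14.6 CPM in WT and 12.5, 11.7 and 12.9 in KO, a log2 fold change of -0.46 (SE 0.14), and Rpl30-ps10 was called lower at -0.71 (SE 0.22). Rpl31-ps8 at -0.32 (SE 0.22) and Rps19-ps6 at -0.57 (SE 0.62) were not called, and the latter had 28, 85 and 50 counts in WT and 11, 18 and 66 in KO. Rps2-ps10 was at 0.09 (SE 0.15), with overlapping groups. Rpl36a-ps3 was called lower at -0.80 (SE 0.21), with all KO libraries below all WT libraries, and shares no window with the gene it is named after.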

How the data were processed

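Libraries prepared from total RNA of TA muscle of 3 WT and 3 KO mice were sequenced by the study as paired reads. Raw read counts per gene were deposited by the authors in 1 table. Reads were aligned with HISAT2 and counted with featureCounts, and per the labels the build was GRCm39, whereas the paper's methods name GRCm38. Handling of strand and of reads with several matches is not given in the sources used here. One WT column carries no number and was taken as WT replicate 1 by elimination. P-values measure the spread between these 3 against 3 libraries.

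Counts were tested with edgeR 4.0.16 (filterByExpr, TMM scaling, robust quasi-likelihood test, prior count 0.125) in R 4.3.3, with Benjamini-Hochberg adjustment over 15623 genes, and DESeq2 1.42.0 as an alternative. CPM are TMM-scaled unless called raw. Call limits were the study's. Standard errors are the log2 fold change divided by the square root of F. The scripts were tested on simulated data. An exact permutation test of 3 against 3 cannot go below 0.1 and was not used. Library totals were 25351976 to 29111213 counts, which limits genes of few reads most.

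The pseudogenes, lists and tests were chosen with earlier results of these data known. Named genes were the 8 of highest CPM, the 10 called with the lowest p, the 4 highest and 4 lowest fold changes, 3 on each side of the count limit, the most abundant of each family with 4 or more tested members, the 4 with most and 4 with fewest shared windows, their parents and Selenow. Rps13-ps1, Rpsa-ps2, Rpl29 and the other copies of Rps12, Rps13, Rps19 and Rpl35a were added with their values known. Transcripts came from GENCODE M21 (GRCm38), matched by gene ID for all 119, and sequences of chromosome 18 are not shown. The values of 1 family and its copies enter counts and medians but are not reported here.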

Additional observations from a re-analysis of the deposited data

How the results depend on the processing

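The 54 pseudogenes called lower and the median log2 fold change of -0.70 held within 1.5 times or within the spread between replicates with DESeq2's test or size factors, with no filter, with robust estimation off and without mitochondrially encoded genes. With at least 10 counts asked of every library, 33 of 73 tested were called lower and 0 higher, beside 2.55% and 2.26% of all genes. The median was then -0.54. Called higher were 4 with DESeq2, 3 with no filter and 4 with robust estimation off, beside 1.88%, 1.94% and 2.33% of all genes. The count with an adjusted p under 0.05 was 1 with DESeq2 (0.288% of all genes) and 28 with no filter (1.14% of all genes). The latter fit tested all genes with a read, and why its count differed was not tested. Among the 57 members with a mean of at least 50 counts, 24 were called lower and 0 higher, beside 3.14% and 2.21% of all genes. Their median was -0.45, and 28 had all KO libraries below all WT libraries, beside 7.87% of all genes. The log2 ratio of the summed CPM was -0.21, or -0.45 on raw totals. Windows of 50 or 150 bases in place of 100 gave medians of 60.1% and 18.5%.

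Without KO replicates 1 and 3, a choice made after seeing the data, 22 were called lower, 7 higher and 2 had an adjusted p under 0.05, with a median of -0.35. With 1 library left out at a time, members called lower ranged from 33 to 64, beside 2.46% to 4.17% of all genes tested. Those called higher ranged from 0 to 6, beside 1.48% to 2.71%. Those with an adjusted p under 0.05 ranged from 0 to 24, beside 0% to 1.5%. Members without overlap ranged from 56 to 83, beside 11.7% to 14.5% of all genes tested in these fits of 5 libraries. Parent genes called lower ranged from 8 (without WT replicate 1) to 25 (without WT replicate 3) around 16, and family sums from 3 to 15 around 11, with the same libraries at the ends.

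Same-numbered libraries did not deviate together (correlations of 0.08, 0.05 and -0.09), so the numbers do not pair them. A replicate block gave 56 members lower and 2 higher, beside 3.5% and 2.2% of all genes, and 9 family sums lower.

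Of 67 named genes, directions turned as follows. Rpl7a-ps11 was at -0.0087 with no filter. Without KO replicates 1 and 3, Rpl18-ps2, Rps24-ps2 and Rps24 were at 0.031, 0.52 and 0.0066. Leaving out 1 library gave -0.097 to 0.075 for Rpl7a-ps11, -0.12 to 0.063 for Rpl21-ps15, -0.51 to 0.35 for Rps13-ps2, -0.64 to 0.054 for Rpl17, -0.15 to 0.15 for Rpl21, -0.50 to 0.021 for Rpl7a and -0.11 to 0.048 for Rps24. None of these values passed the call limits except that of Rpl17 without KO replicate 1, at -0.64. Without KO replicate 2, Rpl18-ps2 and Rps24-ps2 were called lower.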

Other observations

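The order of libraries seen for Rpsa-ps10 was looked for in the whole table, a search made after its values were seen. Among 15527 genes with a mean of at least 10 counts, 9 had at least 2 times the CPM of the highest WT library in both KO replicates 2 and 3 and less than the lowest WT library in KO replicate 1. Of these, 8 were annotated as pseudogenes and the other as a lincRNA. Besides Rpsa-ps10, Gm8210, which carries no ribosomal name, was among them. Set against the transcripts of all cytosolic ribosomal protein genes, that of Gm8210 was closest to Rpl29, a large subunit protein, with 99.4% identity. Gm8210 had 107, 119 and 109 counts in WT and 71, 597 and 747 in KO replicates 1, 2 and 3.

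Rpl29 had 1125, 1217 and 867 counts in WT and 776, 432 and 431 in KO, lowest in the libraries in which Gm8210 was highest. The sum of Rpl29 and its -ps rows, without Gm8210, was among the 11 family sums called lower. Rpl29 with its -ps rows and Gm8210 summed to 50.7, 42.6 and 33.2 CPM in WT and 34.2, 42.6 and 44.4 in KO. With Gm8210 added, all 3 KO libraries were thus inside the WT range. What sets KO replicate 1 apart from the other 2 KO libraries at Rpsa-ps10 and Gm8210 was not tested.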
